A study of Homo sapiens with 35 samples.

Results

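Neurons and endocrine cells store peptides in dense-core secretory granules and transmitters in synaptic vesicles, and release both by calcium-triggered fusion. Many genes of this programme are kept low outside neurons by REST, a zinc finger repressor that binds the RE1 element and recruits deacetylases through CoREST and SIN3. HEK293 lines are known to express part of the neuronal programme, neurofilament genes included, although they come from embryonic kidney. The genes described here are 38 neuronal and granule genes and REST, 39 in all, found by gene name among the 60665 rows of the count table. The list itself was drawn up with earlier results of these data known. Each of the 39 names matched 1 row.

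HEK293T is an established human embryonic kidney line. Cells carried a siPOOL, which is a mixture of many short RNAs that silence 1 transcript, at 5 nM for 72 h, or a control siPOOL, and total RNA was sequenced in 35 libraries. The question was how far INTS13, a subunit of the Integrator complex that cleaves nascent RNA, shares functions with transcription factors that bind Integrator, and how they bear on the response to lack of glucose. In the first set TSPYL2, ZEB1, ZNF608, ZNF609 and ZNF687 were depleted (n = 2 each), with 3 control libraries numbered 1, 2a and 2b. In the second set INTS13, HDGF and ZNF655 were depleted (n = 2 each), cells depleted of INTS13 or HDGF (n = 2 each) and control cells (n = 4) were kept without glucose for 24 h, and there were 4 unstarved control libraries, 3a, 3b, 4a and 4b. In the third set ZMYND8 was depleted (n = 2), with 2 controls labelled for it. No label named a control for ZNF655, whose libraries were numbered 3 and 4, and the second-set controls were used. Depletion was transient and in 1 cell line, and starved cells carried the siPOOL too.

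Libraries held between 16.8 M and 50.8 M counts, and the median library 25.6 M. Each of the 9 depleted transcripts was lower in its own depletion with no overlap, with 8.36% (HDGF) to 56.1% (ZNF608) of the control level left. All 9 embryonic kidney and HEK293T markers passed the filter on low counts, and they summed to 481 to 864 CPM (counts per M counts of the library) across the libraries, whereas glial markers summed to 5.47 to 17.9 CPM, epithelial markers to 1.49 to 24.3 CPM, fibroblast markers to 3.39 to 11.8 CPM, blood markers to 0.16 to 1.62 CPM and adrenal markers to 0.192 to 1.01 CPM. Of the first-set libraries, those numbered 1 stood apart: ribosomal protein genes took 9.91% to 15.8% of their counts, against 7.11% to 9.67% in those numbered 2 and 5.19% to 8% elsewhere. First-set libraries of the same number deviated together, so counts from a fit with the replicate number as a block are given beside first-set results where they differ. In total RNA of a culture, more cells expressing a gene and more RNA per cell cannot be told apart.

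Of the 39 genes, 31 passed the filter and were tested. The 8 others, the granule protein gene SCG2, the vesicle calcium sensor SYT4, the fusion protein gene SNAP25, the P/Q-type calcium channel gene CACNA1A, the microtubule genes STMN4 and DCX, and the RNA-binding protein genes ELAVL3 and ELAVL4, had median counts of 0 to 3 per library. CHGB, SCG3, SYN1, STMN2, TUBB3 and NEFH reached the filter's level, 0.39 CPM, in fewer than 5 of the 9 unstarved control libraries. They were therefore tested because of other groups, and counts over the tested genes are a description only. Per kilobase of exon, NEFL had the highest mean level over all libraries, at 17.9 CPM per kb, and STMN3 had 10.8, INA 10.6, REST 10.3, GNG4 5.71, SYP 5.31, SCG3 0.19 and CHGB 0.139 CPM per kb. The granule genes whose level changed most were thus among the lowest of the tested set.

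Start-site windows of 300 bases from RefSeq (GRCh38.p14) were at hand for 27 of the 39 genes, among them SCG3, SYP, GNG4, STMN3, UNC13A and REST and without CHGB. They were searched on both strands for the left and right parts of the RE1 element, CAGCACC and GGACAG, because REST is the repressor in the set. Both parts on 1 strand, 0 to 10 bases apart, stood in 53 of 35116 windows of all genes (0.151%), and among the 27 genes in those of SCG3, UNC13A and SYN1. The gap was 8 bases in SCG3 and UNC13A, a spacing found in 5 windows of all genes (0.0142%), and 2 bases, the canonical spacing, in SYN1, found in 18 windows (0.0513%). The SCG3 pair is at chr15:51681509-51681537 on the plus strand, 11 to 31 bases into the transcript counting the start as 1, the UNC13A pair at chr19:17688338-17688366 on the plus strand across the start of this minus-strand gene, and the SYN1 pair at chrX:47620070-47620092 on the minus strand, upstream of the start. The left and right parts are in capitals.
SCG3: acttCAGCACCcacagggcGGACAGcgct
UNC13A: ggttCAGCACCgggggcgcGGACAGcgcc
SYN1: gcttCAGCACCgcGGACAGtgcc
A match is a run of letters and was not tested for binding.

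The cyclic AMP response element TGACGTCA, which is palindromic and binds CREB, stood in 649 windows of all genes (1.85%) and in those of CHGA, VGF, KIF1A and SYN1. Its place in the granule cargo genes CHGA (chr14:92923085-92923114, plus strand) and VGF (chr7:101165630-101165659, minus strand) is shown with the element in capitals.
CHGA: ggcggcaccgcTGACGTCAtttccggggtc
VGF: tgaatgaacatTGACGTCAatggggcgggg
SYP and GNG4 were the members called in the most comparisons, and the 250 bases upstream of their starts held neither the RE1 pair nor the response element. They are printed with CG dinucleotides in capitals, SYP from chrX:49200194-49200443 (minus strand, 74% G and C) and GNG4 from chr1:235650609-235650858 (minus strand, 62.4% G and C). The median over the 46 windows of the 27 genes was 64.3%, against 58.7% over all windows.
SYP: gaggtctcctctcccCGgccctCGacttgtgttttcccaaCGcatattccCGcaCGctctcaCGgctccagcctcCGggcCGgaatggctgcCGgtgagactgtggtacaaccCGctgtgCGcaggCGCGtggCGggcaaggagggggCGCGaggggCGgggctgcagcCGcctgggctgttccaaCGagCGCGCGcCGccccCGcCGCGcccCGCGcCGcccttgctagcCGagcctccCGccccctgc
GNG4: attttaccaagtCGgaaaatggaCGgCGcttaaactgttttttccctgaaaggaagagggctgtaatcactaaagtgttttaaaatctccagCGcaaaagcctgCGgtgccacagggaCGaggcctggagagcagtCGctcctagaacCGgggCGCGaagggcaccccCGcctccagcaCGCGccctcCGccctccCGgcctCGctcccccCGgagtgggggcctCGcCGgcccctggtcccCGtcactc

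A gene was called where its adjusted p in edgeR's quasi-likelihood test, with Benjamini-Hochberg adjustment over all 19275 genes tested, was under 0.05, and it is then said to have risen or fallen. Levels are CPM scaled by TMM, with replicates in the order of their numbers, and log2 fold changes carry their SE. Counts of members from other fits, or with libraries left out, are given without the share of all genes called in that fit. They describe how far a call depends on the fit and do not set the members apart from all genes. The labels do not state whether replicates were separate cultures, and a p-value here reflects only how far these libraries vary, which may be technical. Most members whose libraries are listed were picked among called genes with no overlap between groups. Their separation is therefore a description and adds no support to the call, and the share of all genes without overlap is not given. Over the 9 depletions and starvation of control cells, 18 of the 31 tested genes were called at least once and 13 never. The share of all genes called at least once is not given, and starvation alone called 16.8% of them and INTS13 depletion 12.8%. Counts over the 10 comparisons are therefore a description only. SYP and GNG4 rose in 6 of the 10 comparisons, STMN3 and UNC13A in 5, CHGB and SCG3 in 4, and CACNA1B and INA in 3. GNG4 also fell in ZEB1 depletion. SYT11 fell in 3 and rose in none.

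Depletion of ZNF655, a zinc finger protein, raised 12 of the 30 tested neuronal and granule genes (40%) and lowered none, where 6.57% of all genes tested rose and 4.88% fell. ZNF608 depletion raised 8 (26.7%) and lowered none, where 1.08% of all genes rose and 1.68% fell (2.76% in all). ZMYND8 depletion, of a chromatin reader, raised 6 (20%) and lowered none, where 0.446% of all genes rose and 0.301% fell (0.747% in all). Starvation of control cells raised 14 (46.7%) and lowered 1, where 8.77% of all genes rose and 8.05% fell. The median log2 fold change of the 30 genes was 0.60 in ZNF655 depletion, 0.54 in ZNF608 depletion, 0.26 in ZMYND8 depletion and 0.48 in starvation, against 0.02, 0.00, 0.01 and 0.01 over all genes. With no filter on low counts, so that all 39 genes entered, 12, 6, 6 and 14 rose in these 4 comparisons.

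CHGB, SCG3, SYP, STMN3 and GNG4 rose in ZNF655, ZNF608 and ZMYND8 depletion alike, 3 comparisons that share no control library. The same 5 rose in starvation of control cells, which shares its control libraries with ZNF655 depletion. The share of all genes that rose in these comparisons together is not given, so the count of 5 is a description only. Of the 5, CHGB and SYP were called in all 3 depletions also with the controls labelled for ZMYND8 in the ZNF655 comparison, with the first set fitted alone for ZNF608, and with any 1 library left out. STMN3 and GNG4 lost the ZNF655 call with those controls, SCG3, STMN3 and GNG4 lost the ZNF608 call with the first set alone (adjusted p = 0.098 for SCG3 and 0.094 for STMN3, edgeR), and SCG3 and STMN3 lost the ZMYND8 call with any library left out.

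**Figure D1:**
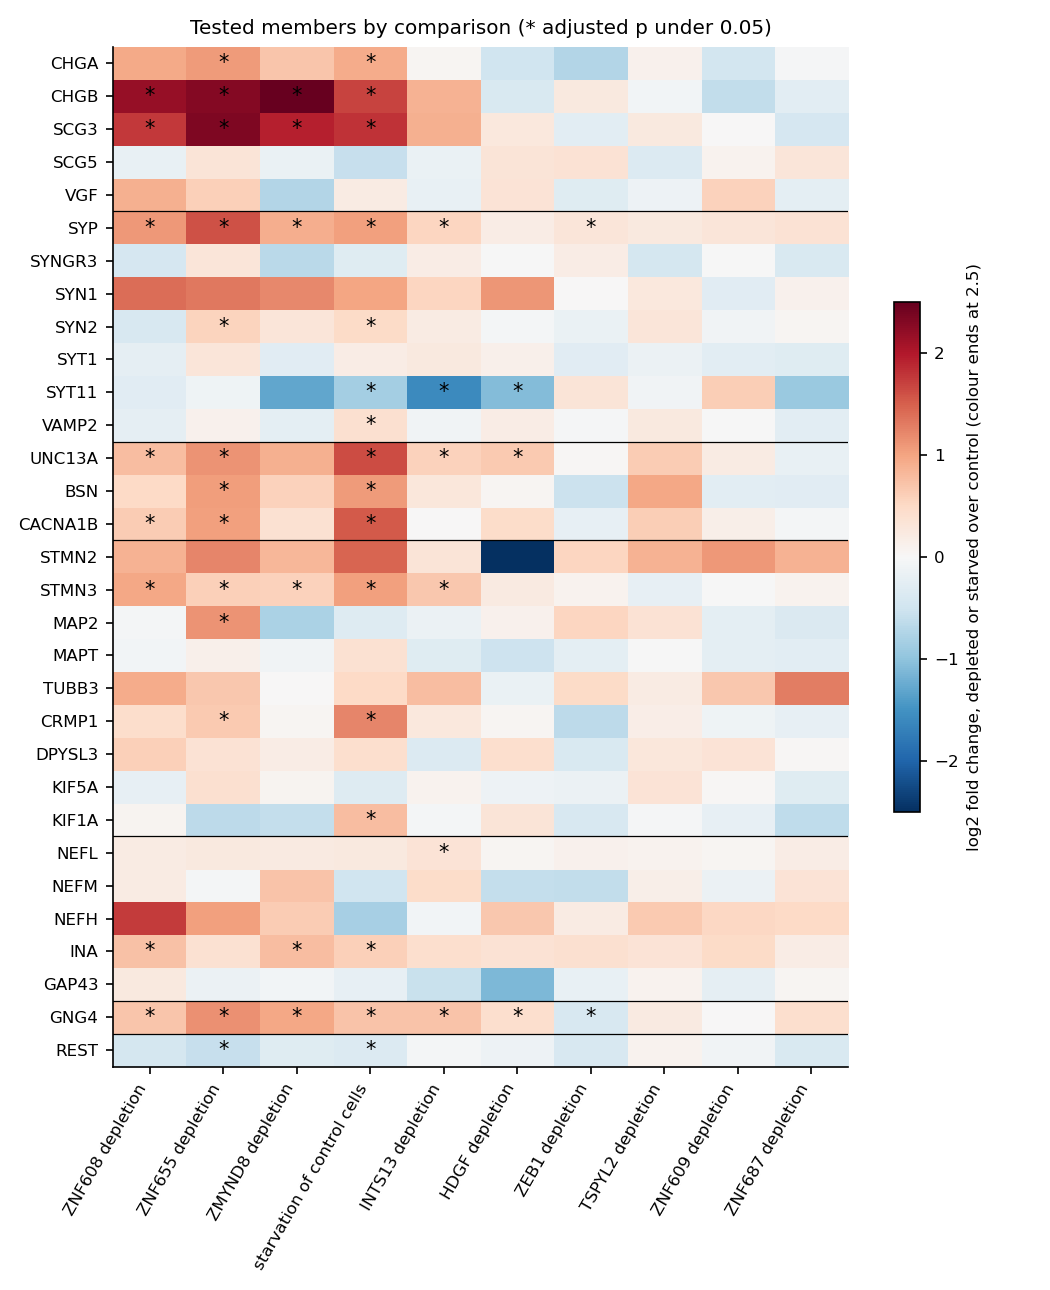
Log2 fold change of the 31 tested genes (rows, grouped by role) in the 9 depletions and in starvation of control cells (columns), depleted or starved over the controls of the same set, with colour ending at 2.5 and a star for an adjusted p under 0.05. CHGB and SCG3 are dark in the first 4 columns, SYP carries 6 stars, and the deep blue cell of STMN2 is a gene with 0 counts in both HDGF-depleted libraries and in 3 of 4 controls.

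Granule cargo came first in size. CHGB encodes chromogranin B, an acidic protein that packs the granule core. It had 0.856 and 1.28 CPM in ZNF655-depleted cells, against 0.204, 0.157, 0.347 and 0.161 CPM in the second-set controls. In ZNF608-depleted cells it had 1.52 and 1.89 CPM, against 0.389, 0.426 and 0.323 CPM in the first-set controls. ZMYND8-depleted cells had 2.16 and 1.80 CPM, against 0.217 and 0.337 CPM in their controls. In all 3 depletions both depleted libraries lay above every control, by a log2 fold change of 2.29 ± 0.33 (adjusted p = 3.47e-05, edgeR), 2.18 ± 0.28 (adjusted p = 2.72e-05) and 2.88 ± 0.38 (adjusted p = 0.000108) in ZNF655, ZNF608 and ZMYND8 depletion. CHGB was a gene of few reads, with 3 to 92 counts in a library.

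SCG3 encodes secretogranin III, which holds chromogranins to the granule membrane. Its level was 1.34 and 1.24 CPM in ZNF655-depleted cells, against 0.238, 0.353, 0.0434 and 0.363 CPM in controls, a log2 fold change of 2.33 ± 0.35 (adjusted p = 5.92e-05, edgeR). Control 4a was the lowest library. It was 1.18 and 1.07 CPM in ZNF608-depleted cells, against 0.454, 0.274 and 0.280 CPM in controls (1.76 ± 0.33, adjusted p = 0.00247, edgeR). It was 1.47 and 1.06 CPM in ZMYND8-depleted cells, against 0.399 and 0.224 CPM in controls (1.95 ± 0.43, adjusted p = 0.0245, edgeR). The groups overlapped in none of the 3, but the ZMYND8 call was lost whichever of the 4 libraries was left out.

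CHGA, the chromogranin A gene, had 1.71 and 2.11 CPM in ZNF655-depleted cells, against 0.848, 0.941, 0.955 and 0.928 CPM in controls, and rose by 1.06 ± 0.27 on the log2 scale (adjusted p = 0.0115, edgeR). Its values were 1.44 and 2.26 CPM in ZNF608-depleted and 1.51 and 1.52 CPM in ZMYND8-depleted cells, against 0.843, 0.821 and 1.21 CPM and 0.834 and 1.07 CPM in their controls, with no overlap and no call. With the replicate block CHGA was called in ZNF608 depletion (0.98 ± 0.24, adjusted p = 0.0094, edgeR). SCG5, a chaperone of the prohormone convertase PCSK2, and VGF, a granule protein, were called in none of the 10 comparisons. Calls among the 5 tested cargo genes were thus limited to CHGA, CHGB and SCG3.

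Among vesicle membrane genes SYP, for synaptophysin, was the one called most often. It had 41.3 and 44.6 CPM in ZNF655-depleted cells, against 15.2, 14.8, 13.2 and 13.4 CPM in controls, 3.03 times the control level (log2 fold change 1.60 ± 0.08, adjusted p = 2.98e-13, edgeR). In ZNF608-depleted cells it had 48.6 and 51.5 CPM, against 25.0, 22.8 and 22.8 CPM in controls (1.09 ± 0.08, adjusted p = 3.94e-09, edgeR). ZMYND8-depleted cells had 37.4 and 36.5 CPM, against 20.6 and 18.7 CPM in controls (0.91 ± 0.09, adjusted p = 2.39e-06, edgeR). Every depleted library was above every control of its set, and each of the 3 calls held with any library left out. That separation was not particular to these 3 depletions, since SYP lay above every control in each other depletion too. It had 29.6 and 25.9 CPM in TSPYL2-, 28.4 and 29.9 CPM in ZNF609- and 30.2 and 30.3 CPM in ZNF687-depleted cells, against the same first-set controls. HDGF-depleted cells had 16.6 and 15.6 CPM, against the second-set controls. None of these was called without the block.

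SYN2, a synapsin that tethers vesicles, had 10.4 and 8.46 CPM in ZNF655-depleted cells, against 6.52, 5.84, 6.21 and 6.98 CPM in controls (0.56 ± 0.18, adjusted p = 0.0417, edgeR). SYNGR3, SYN1 and SYT1 were called in none of the 10 comparisons, although SYT1, a calcium sensor of fusion, had a mean of 13 CPM. SYN1 had 0.596 and 0.437 CPM in ZNF655-depleted cells, against 0.204, 0.235, 0.217 and 0.161 CPM in controls, with no overlap (1.32 ± 0.50, adjusted p = 0.0931, edgeR). SYT11 had 0.775 and 0.600 CPM in ZMYND8-depleted cells, against 1.81 and 1.57 CPM in controls (-1.30 ± 0.33, adjusted p = 0.0631, edgeR). SYN1 overlaps ARAF and TIMP1 on the opposite strand, and the strand setting of the counting was not given in the sources used here.

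**Figure D2:**
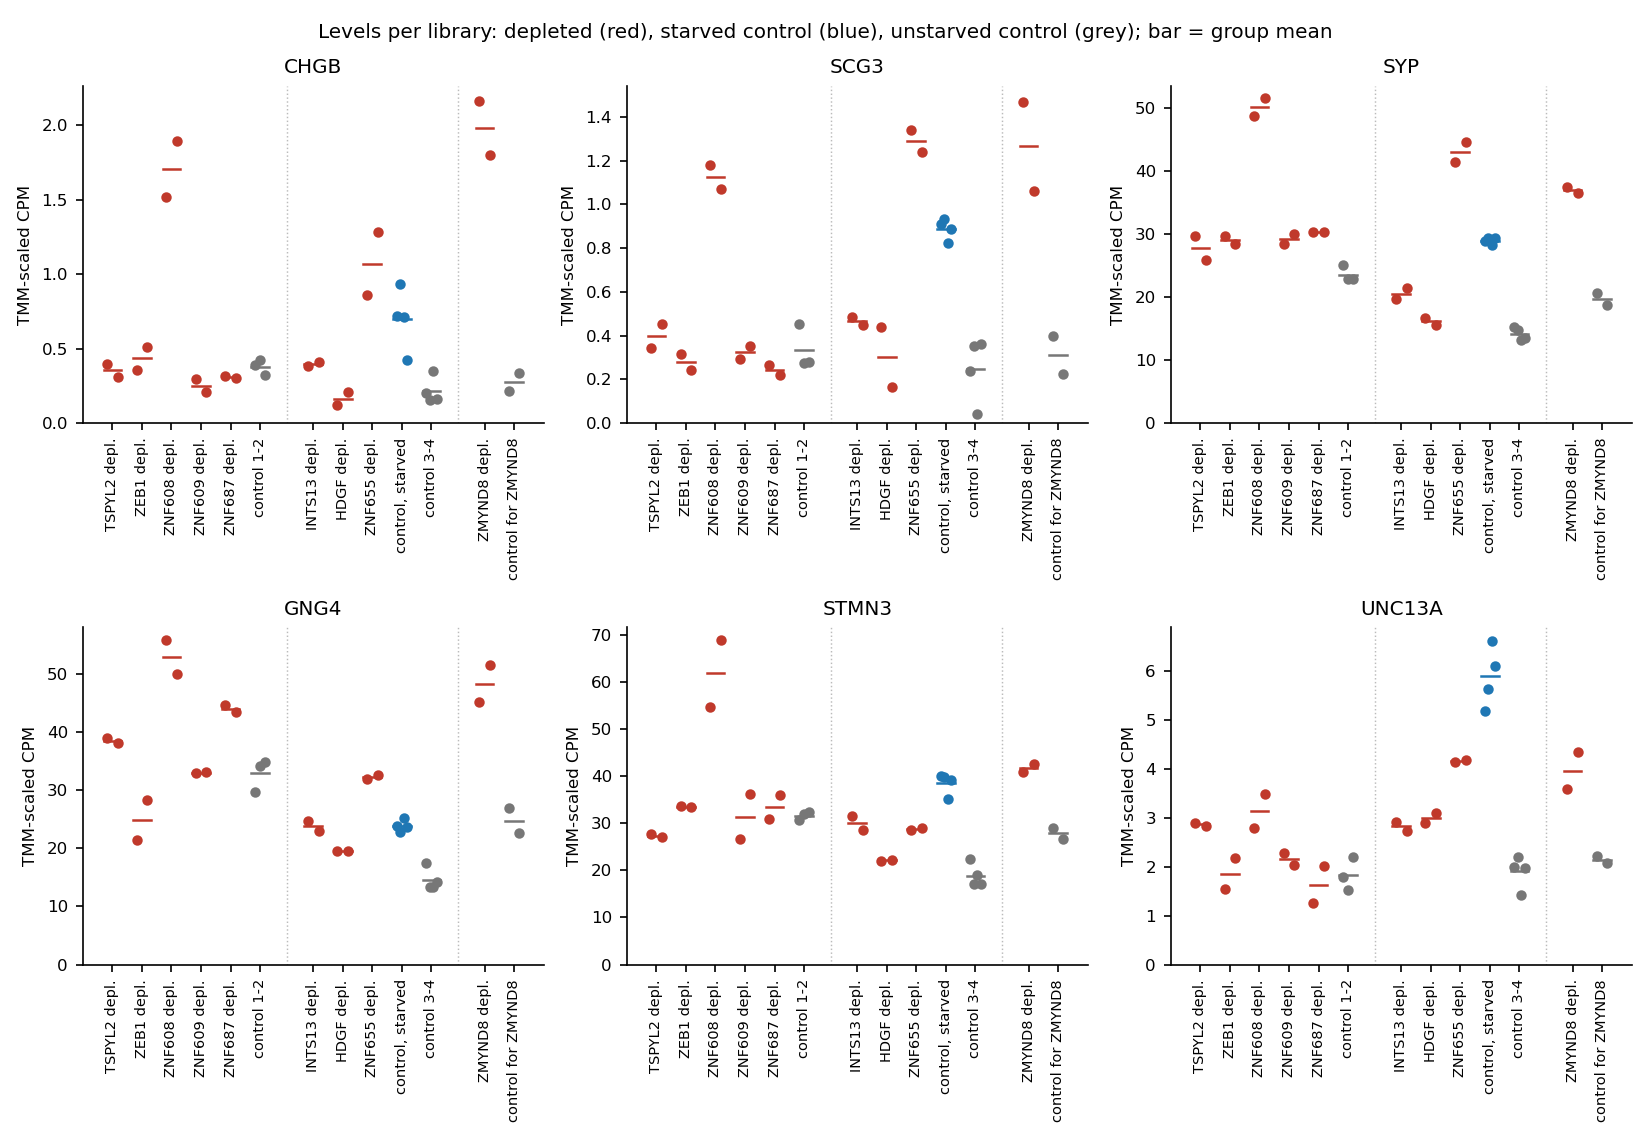
TMM-scaled CPM of 6 genes in each library (points; bars are group means), with depleted groups in red, starved control cells in blue and unstarved controls in grey, and dotted lines between the 3 sets. SYP in ZNF608-depleted cells (48.6 and 51.5 CPM) is the highest in the first set, and the grey means of SYP, GNG4 and STMN3 differ between the 3 sets.

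Of the release machinery, UNC13A primes vesicles for fusion. It had 4.13 and 4.19 CPM in ZNF655-depleted cells, against 2.00, 2.20, 1.43 and 1.98 CPM in controls (1.12 ± 0.18, adjusted p = 0.000125, edgeR). BSN, the active zone scaffold bassoon, had 24.1 and 23.5 CPM in ZNF655-depleted cells, against 13.8, 10.8, 10.1 and 11.1 CPM in controls (1.05 ± 0.27, adjusted p = 0.0117, edgeR). The BSN call was lost when either ZNF655 library was left out, as was that of CHGA. CACNA1B, the pore of N-type calcium channels that trigger release, rose by 1.03 ± 0.18 (adjusted p = 0.000258, edgeR). In ZNF608 depletion UNC13A rose by 0.77 ± 0.18 and CACNA1B by 0.64 ± 0.17 (adjusted p = 0.0199 and 0.0381, edgeR). In ZMYND8-depleted cells UNC13A had 3.59 and 4.34 CPM, against 2.21 and 2.08 CPM in controls, and was not called.

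STMN3 led the microtubule genes; stathmins bind tubulin and destabilise microtubules. It had 54.8 and 69.0 CPM in ZNF608-depleted cells, against 30.6, 32.0 and 32.3 CPM in controls (0.97 ± 0.12, adjusted p = 1.58e-05, edgeR). In ZNF655-depleted cells it had 28.5 and 28.9 CPM, against 22.4, 17.1, 19 and 17.1 CPM in controls, and rose by 0.60 ± 0.12 (adjusted p = 0.000788, edgeR). ZMYND8-depleted cells had 41.0 and 42.5 CPM, against 29.1 and 26.7 CPM in controls (0.58 ± 0.13, adjusted p = 0.0328, edgeR), a call lost whichever of the 4 libraries was left out.

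MAP2, which binds dendritic microtubules, had 2.12 and 1.64 CPM in ZNF655-depleted cells, against 0.509, 0.745, 0.912 and 1.29 CPM in controls (1.13 ± 0.27, adjusted p = 0.00691, edgeR). Control 4b came nearest, and the call was lost without ZNF655 library 3. In ZMYND8-depleted cells MAP2 had 0.612 and 0.646 CPM, against 0.761 and 1.51 CPM in controls. No label assigns the second-set controls to ZNF655. SYP averaged 14.1 CPM in them and 19.7 CPM in the controls labelled for ZMYND8, and MAP2 0.864 and 1.14 CPM. Against the latter controls MAP2 lost its ZNF655 call. How far these control levels enter the following difference was not tested. With each effect over its own controls, that of ZNF655 exceeded that of ZMYND8 by 1.93 ± 0.47 for MAP2 and by 0.69 ± 0.12 for SYP (adjusted p = 0.0306 and 0.00284, edgeR). They were the only members called in that test of the difference, where 1.72% of all genes were called, and 1 was called without ZNF655 library 3 or 4, either ZMYND8 library, either ZMYND8 control or control 3b, and 3 without control 3a. CRMP1, a semaphorin signalling protein of growth cones, rose by 0.65 ± 0.22 in ZNF655 depletion (adjusted p = 0.0491, edgeR), and it overlaps EVC on the opposite strand.

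INA, the intermediate filament alpha-internexin, rose in ZNF608 depletion by 0.73 ± 0.15 (adjusted p = 0.00623, edgeR). It had 48.1 and 46.3 CPM in ZMYND8-depleted cells, against 28.3 and 26.6 CPM in controls (0.78 ± 0.17, adjusted p = 0.024, edgeR), a call lost with any of the 4 libraries left out. NEFL and NEFM, of the light and medium neurofilament chains, and GAP43, of growth cones, were not called in the ZNF655, ZNF608 or ZMYND8 depletion.

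GNG4 encodes a gamma subunit of heterotrimeric G proteins. It had 31.9 and 32.7 CPM in ZNF655-depleted cells, against 17.4, 13.4, 13.3 and 14.2 CPM in controls (1.15 ± 0.11, adjusted p = 4.26e-08, edgeR). ZMYND8-depleted cells had 45.2 and 51.5 CPM, against 26.9 and 22.6 CPM in controls (0.96 ± 0.13, adjusted p = 0.000108, edgeR). In ZNF608 depletion it rose by 0.69 ± 0.11 (adjusted p = 0.000522, edgeR). Depleted and control libraries were apart in all 3. Of 12 other tested G protein beta and gamma genes, 2 rose (GNG2 and GNG7) and GNG12 fell in ZNF655 depletion, where 6.57% of all genes rose and 4.88% fell. In ZNF608 depletion none rose and GNB4 fell, where 1.08% and 1.68% of all genes did, and in ZMYND8 depletion none was called. Against the controls labelled for ZMYND8, GNB3 alone was called in ZNF655 depletion, as higher.

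**Figure D3:**
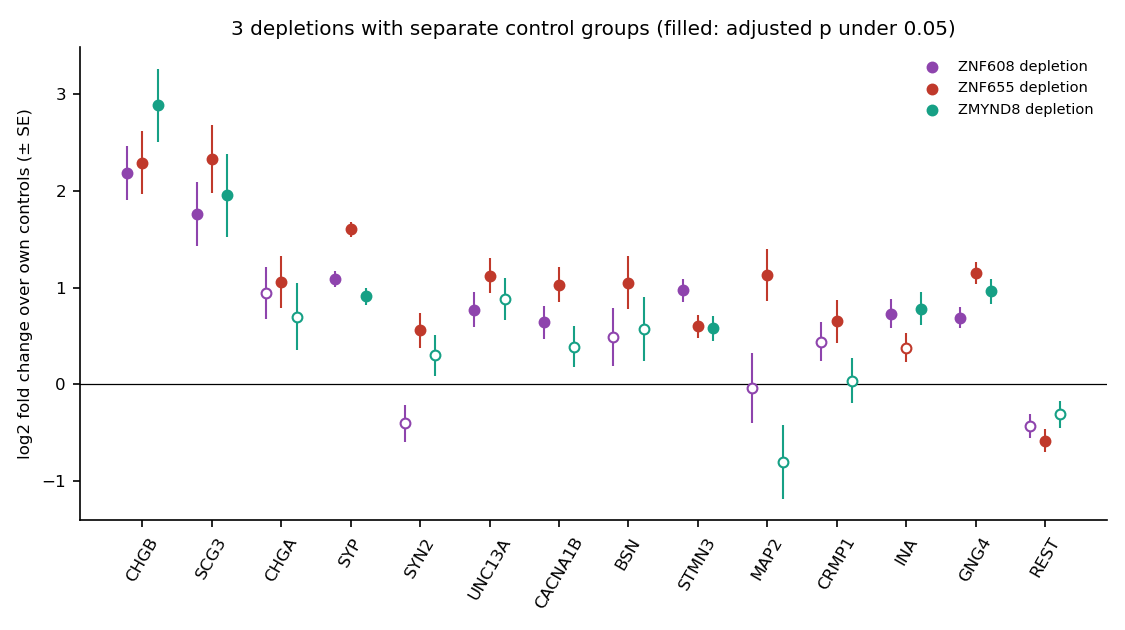
Log2 fold change (y axis, ± SE) of 14 genes in depletion of ZNF608, ZNF655 and ZMYND8, each over its own control libraries; filled points passed an adjusted p under 0.05. CHGB, SCG3, SYP, STMN3 and GNG4 are filled in all 3 colours, MAP2 is filled in ZNF655 depletion only, and REST lies below 0 in each.

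The count for ZNF608 moved with the fit. It was 8 as given, 12 higher with REST lower when the replicate block was added, adding CHGA, BSN, CRMP1 and NEFH to the 8, and 5 without ZNF608 library 2. Without the libraries numbered 1 it was 12 members. With the first set fitted alone it was 2, and 6 with the block in that fit (CHGB, SCG3, SYP, STMN3, INA and GNG4), where none of the 4 added genes nor REST was called. Glial markers summed to 17.1 to 17.7 CPM in ZNF608-depleted cells, against 11.4 to 14.6 CPM in controls, with OLIG2 called of 4 tested; their part in the result was not tested. For ZMYND8 the count was 3, namely CHGB, SYP and GNG4, whichever library was left out. It was 11 with the block on all libraries, and 13 and 14 with the third set fitted alone without and with the block. Fibroblast markers summed to 10.4 to 11.7 CPM in ZMYND8-depleted cells, against 6.85 to 8.34 CPM in controls, with none of 4 tested called; their part was not tested either.

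The count for ZNF655 rested on the choice of controls. Against the controls labelled for ZMYND8, 5 members rose and 3 fell, where 5.16% of all genes rose and 3.94% fell. CHGB (1.98 ± 0.40), SCG3 (1.97 ± 0.42), SYP (1.12 ± 0.09) and UNC13A (0.95 ± 0.22) rose again (adjusted p at most 0.00697, edgeR), and NEFH (2.17 ± 0.62, adjusted p = 0.0295) was added. KIF1A, a vesicle motor, fell by 1.04, CRMP1 by 0.86 and GAP43 by 1.41 (adjusted p at most 0.0246, edgeR). CRMP1 thus turned its direction. GNG4 (0.38, adjusted p = 0.0551, edgeR), CHGA (1.03, 0.052), BSN (1.01, 0.0533), MAP2 (0.78, 0.137), CACNA1B (0.48, 0.144) and SYN2 (0.31, 0.382) lost their call. So did STMN3, with 28.5 and 28.9 CPM in ZNF655-depleted cells, against 29.1 and 26.7 CPM in the controls labelled for ZMYND8 (0.04, adjusted p = 0.881, edgeR). Levels of several members differ between the control groups: CRMP1 averaged 11.7 CPM in the first-set controls, 3.52 CPM in the second-set controls and 10.1 CPM in those labelled for ZMYND8, and GNG4 32.9, 14.6 and 24.7 CPM. Marker levels moved beside the ZNF655 result: kidney and HEK293T markers summed to 481 to 521 CPM in ZNF655-depleted cells, against 803 to 864 CPM in the second-set controls, glial markers to 10.0 to 11.3 CPM, against 6.73 to 8.14 CPM, and fibroblast markers to 9.68 to 10.1 CPM, against 3.96 to 6.21 CPM; their part in the result was not tested.

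INTS13 depletion raised 5 of the 30 genes and lowered 1, where 6.53% of all genes rose and 6.23% fell. SYP had 19.6 and 21.4 CPM in INTS13-depleted cells, against 15.2, 14.8, 13.2 and 13.4 CPM in controls (0.53 ± 0.08, adjusted p = 5.08e-05, edgeR). GNG4 had 24.8 and 23.0 CPM, against 17.4, 13.4, 13.3 and 14.2 CPM in controls (0.71 ± 0.11, adjusted p = 5.49e-05, edgeR). STMN3 had 31.6 and 28.6 CPM, against 22.4, 17.1, 19 and 17.1 CPM in controls (0.67 ± 0.11, adjusted p = 0.000217, edgeR). For all 3 the depleted libraries lay above the highest control, which was 3a.

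SYT11, a synaptotagmin without calcium binding, had 0.835 and 0.612 CPM in INTS13-depleted cells, against 1.83, 2.23, 2.34 and 2.5 CPM in controls, and fell by 1.60 ± 0.28 on the log2 scale (adjusted p = 0.000257, edgeR). UNC13A (2.92 and 2.73 CPM, against 2.00, 2.20, 1.43 and 1.98 CPM in controls) rose by 0.57 ± 0.19, and NEFL (57.2 and 52.4 CPM, against 51.5, 39.2, 39.9 and 41.1 CPM in controls) by 0.35 ± 0.11 (adjusted p = 0.0473 and 0.0358, edgeR). Both calls were lost with either INTS13 library or control 4a or 4b left out, that of UNC13A also without control 3a and that of NEFL without 3b. CHGB (0.383 and 0.408 CPM) and SCG3 (0.487 and 0.449 CPM) were above each control in INTS13-depleted cells but were not called. Epithelial markers were higher beside these genes, summing to 14.3 to 15.3 CPM in INTS13-depleted cells, against 1.92 to 3.19 CPM in controls, with 3 of the 3 tested of 4 called; their part in the result was not tested.

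HDGF depletion, of a chromatin-bound growth factor, raised 2 of the 30 genes and lowered 1, where 1.89% of all genes rose and 2.6% fell (4.49% in all). SYT11 had 1.04 and 1.03 CPM in HDGF-depleted cells, against 1.83, 2.23, 2.34 and 2.5 CPM in controls, and fell by 1.09 ± 0.27 (adjusted p = 0.0135, edgeR). UNC13A had 2.89 and 3.10 CPM, against 2.00, 2.20, 1.43 and 1.98 CPM in controls (0.65 ± 0.19, adjusted p = 0.0477, edgeR). GNG4 had 19.5 and 19.5 CPM, against 17.4, 13.4, 13.3 and 14.2 CPM in controls (0.42 ± 0.11, adjusted p = 0.0249, edgeR). The groups were apart for all 3 genes, but none was called without HDGF library 3 or 4, and 1 without control 4b. GNG4 was not called without control 3b, 4a or 4b, nor UNC13A without 3a, 4a or 4b.

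Set directly against INTS13-depleted cells, ZNF655-depleted cells had 7 of the 30 genes higher and none lower, where 3.66% of all genes were higher and 3.14% lower (6.8% in all). SYT11 (1.5 ± 0.31), SCG3 (1.45 ± 0.38), CHGB (1.43 ± 0.36), MAP2 (1.28 ± 0.33), SYP (1.07 ± 0.09), CACNA1B (1.03 ± 0.21) and GNG4 (0.44 ± 0.13) were the 7, with adjusted p of at most 0.0319 (edgeR). Against HDGF-depleted cells, 6 were higher and KIF1A lower (-0.98 ± 0.27), where 3.94% of all genes were higher and 2.34% lower. CHGB, SCG3, CHGA, SYP, SYT11 and GNG4 were higher, with adjusted p of at most 0.0444 (edgeR). Counting REST, 8 members were called in each, and whichever library of the pair was left out, 2 to 4 were called against INTS13 and 3 to 5 against HDGF.

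The remaining first-set depletions called few members. ZEB1 is a repressor of epithelial genes, and its depletion raised 1 and lowered 1 of the 30, where 1.78% of all genes rose and 1.99% fell (3.77% in all). SYP had 29.7 and 28.4 CPM in ZEB1-depleted cells, against 25.0, 22.8 and 22.8 CPM in controls (0.31 ± 0.08, adjusted p = 0.0379, edgeR). GNG4 had 21.5 and 28.4 CPM, against 29.7, 34.2 and 34.8 CPM in controls, and fell by 0.40 ± 0.11 (adjusted p = 0.0493, edgeR). No library overlapped, but neither was called without ZEB1 library 1, control 2a or control 2b, while 7 members were called without control 1 and 11 without ZEB1 library 2. With the replicate block 6 members were called, INA and SYP higher and CRMP1, NEFM, GNG4 and REST lower, but with the first set fitted alone none was called, and with the block in that fit INA only. Epithelial markers summed to 14.6 to 24.3 CPM in ZEB1-depleted cells, against 5.19 to 8.91 CPM in controls, with EPCAM called of 3 tested (1.93 ± 0.25, adjusted p = 2.36e-05, edgeR); their part in the result was not tested.

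No member was called in TSPYL2, ZNF609 or ZNF687 depletion, where 2.22%, 0.571% and 0.254% of all genes were called in either direction and 1.14%, 0.192% and 0.0674% rose. Without adjustment 6, 5 and 7 of the 30 genes had a p under 0.05 in edgeR, where 3238, 1891 and 1751 of all 19275 genes tested did. DESeq2 called 3, 1 and 3 members. With the replicate block 6 members rose in TSPYL2 depletion: BSN (1.10 ± 0.20), UNC13A (0.68 ± 0.18), CACNA1B (0.66 ± 0.17), KIF5A, INA and SYP (adjusted p at most 0.0349, edgeR). SYP and INA rose in ZNF609 depletion under the block. In ZNF687 depletion SYP and GNG4 rose and SYT11 and REST fell under it. With the first set fitted alone, with or without the block, no member was called in these 3 depletions. Leaving out 1 library gave at most 1 member for TSPYL2 (without library 1 or control 2b), 1 for ZNF609 and 2 for ZNF687 (both without control 1). Without the first-set libraries numbered 1, left out together, 5, 5 and 3 members were called.

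Starvation for glucose addressed whether the genes respond to nutrient loss. SCG3 had 0.912, 0.932, 0.823 and 0.887 CPM in starved control cells, against 0.238, 0.353, 0.0434 and 0.363 CPM in unstarved ones (1.80 ± 0.32, adjusted p = 0.00032, edgeR). CHGB had 0.720, 0.932, 0.711 and 0.420 CPM, against 0.204, 0.157, 0.347 and 0.161 CPM in unstarved cells (1.69 ± 0.31, adjusted p = 0.000365, edgeR). UNC13A had 5.19, 5.63, 6.62 and 6.11 CPM, against 2.00, 2.20, 1.43 and 1.98 CPM in unstarved cells (1.63 ± 0.15, adjusted p = 8.95e-08, edgeR). In all 3 the 4 starved libraries lay above the 4 unstarved, most narrowly for CHGB in library 4b.

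CACNA1B had 4.13, 4.11, 4.68 and 4.53 CPM in starved cells, against 1.66, 1.45, 1.56 and 1.29 CPM in unstarved cells (1.54 ± 0.15, adjusted p = 9.44e-08, edgeR). CRMP1 had 8.88, 8.6, 9.01 and 6.72 CPM, against 4.58, 2.63, 3.69 and 3.19 CPM in unstarved cells (1.23 ± 0.18, adjusted p = 2.47e-05, edgeR). BSN had 20.9, 23.2, 27.5 and 24.7 CPM, against 13.8, 10.8, 10.1 and 11.1 CPM in unstarved cells (1.07 ± 0.23, adjusted p = 0.00194, edgeR). Starved and unstarved libraries were apart for these 3 genes as well.

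SYP had 28.8, 29.3, 28.2 and 29.4 CPM in starved cells, against 15.2, 14.8, 13.2 and 13.4 CPM in unstarved cells (1.03 ± 0.07, adjusted p = 3.71e-10, edgeR). STMN3 had 40.0, 39.9, 35.2 and 39.3 CPM, against 22.4, 17.1, 19 and 17.1 CPM in unstarved cells (1.03 ± 0.10, adjusted p = 8.95e-08, edgeR). SYT11 went the other way, with 1.10, 1.65, 1.46 and 0.700 CPM in starved cells, against 1.83, 2.23, 2.34 and 2.5 CPM in unstarved cells (-0.84 ± 0.21, adjusted p = 0.00578, edgeR). These genes too had no overlap. CHGA, KIF1A, GNG4, INA, SYN2 and VAMP2, the vesicle SNARE, made up the 14 that rose, by 0.41 to 0.93. With 1 library left out, 14 to 16 members were called, REST included, against 16 with all libraries.

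**Figure D4:**
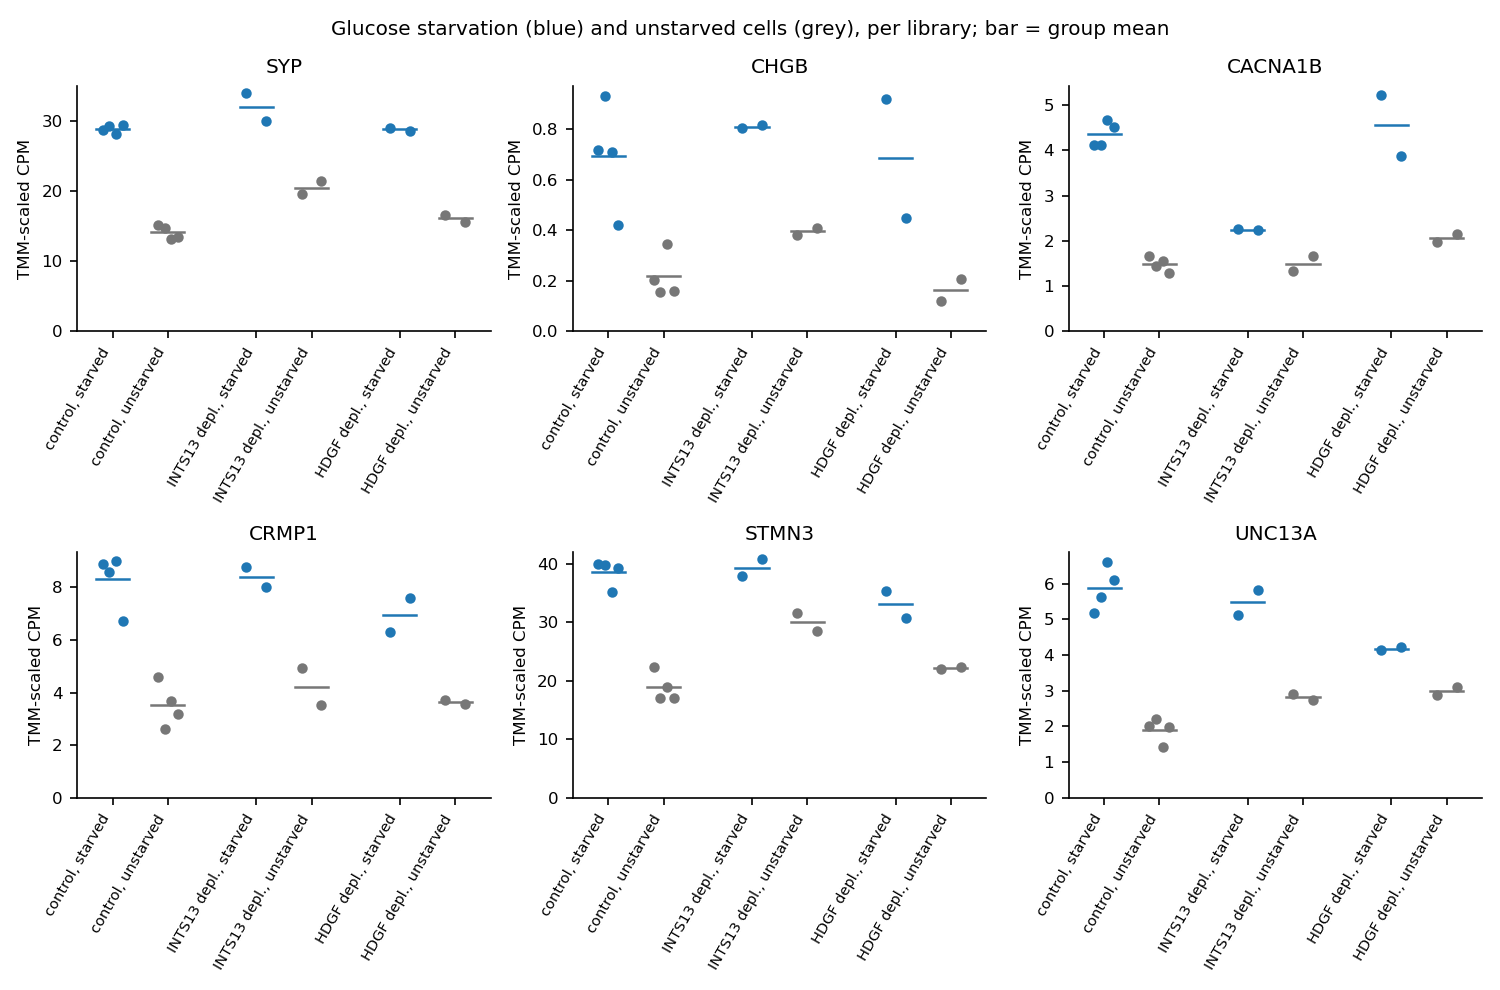
TMM-scaled CPM of 6 genes in starved (blue) and unstarved (grey) libraries of control, INTS13-depleted and HDGF-depleted cells (points; bars are group means). Starved libraries lie above unstarved ones in each pair, and CACNA1B is at 2.26 and 2.23 CPM in starved INTS13-depleted cells, against 4.11 to 4.68 CPM in starved control cells.

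In INTS13-depleted cells starvation raised 3 of the 30 genes, where 0.856% of all genes rose and 1.32% were called, and in HDGF-depleted cells 5, where 2.09% rose and 3.54% were called; none fell. SYP had 34.0 and 30.1 CPM in starved INTS13-depleted cells, against 19.6 and 21.4 CPM in unstarved ones (0.64 ± 0.09, adjusted p = 0.00106, edgeR), and UNC13A (0.96 ± 0.21) and CRMP1 (0.98 ± 0.25) rose as well (adjusted p = 0.018 and 0.0449, edgeR). In HDGF-depleted cells SYP had 29.1 and 28.6 CPM when starved, against 16.6 and 15.6 CPM unstarved (0.84 ± 0.10, adjusted p = 1.86e-05, edgeR). CHGB (2.11 ± 0.46), CACNA1B (1.16 ± 0.20), CRMP1 (0.92 ± 0.26) and STMN3 (0.58 ± 0.14) rose there too (adjusted p at most 0.0416, edgeR). Leaving out 1 library left 0 calls (without INTS13-depleted library 3) or 1 in INTS13-depleted cells, and 1 (without starved HDGF library 3) to 3 in HDGF-depleted cells.

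Among starved cells, INTS13 depletion lowered 2 of the 30 genes, where 1.54% of all genes fell and 2.32% rose (3.86% in all). CACNA1B had 2.26 and 2.23 CPM in starved INTS13-depleted cells, against 4.13, 4.11, 4.68 and 4.53 CPM in starved control cells, and fell by 0.96 ± 0.18 (adjusted p = 0.00171, edgeR). SYT11 had 0.502 and 0.633 CPM, against 1.10, 1.65, 1.46 and 0.700 CPM in starved control cells, and fell by 1.11 ± 0.32 (adjusted p = 0.0473, edgeR). The groups did not overlap. SYT11 was not called without either starved INTS13 library or without control 3a, 3b or 4a, CACNA1B was not called without starved INTS13 library 4, and 3 members were called without starved control 4b. HDGF depletion in starved cells called no member, where 0.659% of all genes were called, and DESeq2 called 1. In edgeR 4 of the 30 genes had an unadjusted p under 0.05, where 2126 of all 19275 genes tested did.

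The difference between the starvation responses was tested as an interaction. No member was called for INTS13 or HDGF, where 0.0156% and 0% of all genes were called by edgeR. In edgeR 6 and 4 of the 30 genes had an unadjusted p under 0.05, where 1103 and 909 of all 19275 genes tested did. With the second set fitted alone, 2 members were called for INTS13 and 1 for HDGF, all lower. The responses of the genes in depleted and control cells were therefore not shown to differ in the fit of all libraries.

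REST was expressed in every group. It had 75.7 and 71.1 CPM in ZNF655-depleted cells, against 99.3, 116, 110 and 115 CPM in the second-set controls, and fell by 0.58 ± 0.12 on the log2 scale (adjusted p = 0.00166, edgeR). It had 90.7, 88.6, 80.4 and 84.5 CPM in starved control cells, against the same 4 controls, and fell by 0.35 ± 0.10 (adjusted p = 0.0109, edgeR). In neither did the groups overlap. Against the controls labelled for ZMYND8, 76.7 and 89.0 CPM, the ZNF655 difference was -0.17 with an adjusted p of 0.453 (edgeR).

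In ZNF608-depleted cells REST had 53.1 and 59.4 CPM, against 70.0, 78.6 and 79.4 CPM in controls (-0.43 ± 0.12, adjusted p = 0.0554, edgeR; with the replicate block -0.39, adjusted p = 0.00542). ZMYND8-depleted cells had 64.5 and 69.1 CPM, against 76.7 and 89.0 CPM in controls (-0.31 ± 0.14, adjusted p = 0.439, edgeR). Neither overlapped its controls, and neither was called without the block. ZEB1-depleted cells had 45.7 and 68.4 CPM and ZNF687-depleted cells 52.8 and 63.9 CPM, against the same first-set controls (-0.41 ± 0.12 and -0.38 ± 0.12, adjusted p = 0.0632 and 0.272, edgeR; with the block 0.00576 and 0.0486).

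The highest REST levels were in the second-set controls and in INTS13-depleted (106 and 107 CPM) and HDGF-depleted cells (98.2 and 104 CPM), whose levels overlapped or adjoined those of the controls and were not called. TSPYL2-depleted cells had 72.1 and 89.1 CPM and ZNF609-depleted cells 71.5 and 72.0 CPM, both overlapping their controls. Starved INTS13-depleted cells had 94.8 and 92.0 CPM and starved HDGF-depleted cells 86.3 and 95.1 CPM, without a call against unstarved cells. REST overlaps NOA1 on the opposite strand, so part of its counts may be NOA1 reads if the counting ignored strand. Levels of mRNA say nothing of REST protein, which is regulated by turnover.

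**Figure D5:**
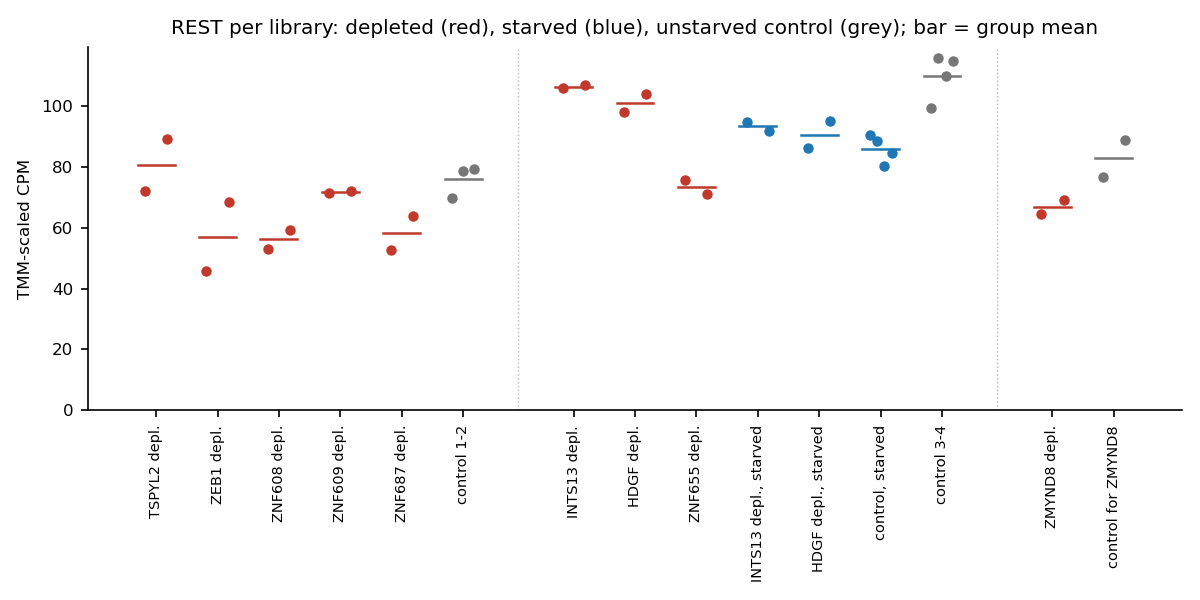
TMM-scaled CPM of REST in each library of the 15 groups (points; bars are group means), depleted in red, starved in blue and unstarved controls in grey, with dotted lines between sets. ZNF655-depleted libraries (75.7 and 71.1 CPM) lie below every other library of the second set, and the lowest library is ZEB1-depleted library 1 at 45.7 CPM.

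REST's corepressors and the factors of its turnover were set beside it. Of 23 listed genes 22 were tested. In ZNF655 depletion 1 rose and 1 fell, where 6.57% of all genes rose and 4.88% fell. In ZNF608 depletion 2 fell, where 1.68% of all genes did, and in ZMYND8 depletion none was called, where 0.747% were. In starvation 2 rose, where 8.77% of all genes did. These counts are not read as a result about the list, and the genes named next are single calls. SRRM3, which splices REST to a shorter form in neural cells, had a mean of 2.64 CPM in ZNF655-depleted cells, against 1.48 CPM in controls (0.83 ± 0.18, adjusted p = 0.00307, edgeR). BTRC, whose ubiquitin ligase marks REST for degradation, averaged 54.4 CPM, against 80.3 CPM in controls (-0.56 ± 0.12, adjusted p = 0.00198, edgeR). The phosphatase gene CTDSPL fell in ZNF608 depletion (-0.45 ± 0.09, adjusted p = 0.00308, edgeR), and CTDSP1 rose in starvation (0.32 ± 0.07, adjusted p = 0.00376, edgeR).

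Other genes of vesicles and release, 37 in a list of which 31 were tested, gave a wider view. In ZNF655 depletion 12 rose and none fell, where 6.57% of all genes rose and 4.88% fell. The median log2 fold change was 0.66, against 0.02 over all genes. SYN3 (1.39 ± 0.21), RIMS2 (1.31 ± 0.19), SYT7 (1.29 ± 0.31), SYT3 (1.28 ± 0.24), CPLX1 (1.24 ± 0.31) and RAB3C (0.87 ± 0.14) led (adjusted p at most 0.00934, edgeR). Against the controls labelled for ZMYND8, 4 rose in ZNF655 depletion, SV2A, DNM1, SYN3 and PCLO, where 5.16% of all genes rose. Of the 6 genes named before, SYN3 alone was thus called with those controls. In starvation 8 rose, where 8.77% of all genes did. SNAP91 (1.07 ± 0.13), CPLX1 (0.96 ± 0.27) and RAB3C (0.88 ± 0.12) led, with adjusted p of at most 0.0144 (edgeR). ZNF608 depletion raised 2, CPLX1 (1.31 ± 0.31) and RAB3C (0.61 ± 0.14), where 1.08% of all genes rose. ZMYND8 depletion raised CPLX1 (1.62 ± 0.37), where 0.446% of all genes rose. The adjusted p was at most 0.0293 for these calls (edgeR). CPLX1 encodes a complexin, which clamps the fusion complex, and its ZNF655 call is among those lost with the controls labelled for ZMYND8. In INTS13 depletion 3 rose and 1 fell, where 6.53% and 6.23% of all genes did, and in HDGF depletion 2 rose and 1 fell, where 1.89% and 2.6% of all genes did.

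Genes of granule formation and peptide processing did not move one way. Of 30 listed 16 were tested. In ZNF655 depletion 3 rose and 3 fell, where 6.57% of all genes rose and 4.88% fell. In starvation 3 rose and 1 fell, where 8.77% of all genes rose and 8.05% fell. None was called in ZNF608 or ZMYND8 depletion. Against the controls labelled for ZMYND8, 1 rose and none fell in ZNF655 depletion, where 5.16% of all genes rose and 3.94% fell. PTPRN2, a granule membrane phosphatase, rose in ZNF655 depletion (1.49 ± 0.49, adjusted p = 0.0492, edgeR) and in starvation (1.92 ± 0.41, adjusted p = 0.0016). SYTL5, a Rab27 effector, fell in both (-1 ± 0.22 and -1.11 ± 0.18, adjusted p = 0.00334 and 9.78e-05, edgeR). PAM, which amidates peptides, fell in ZNF655 depletion (-0.28 ± 0.07, adjusted p = 0.00716, edgeR). No call in this list went with the rises of CHGB and SCG3 in ZNF608 and ZMYND8 depletion. Of all genes 2.76% and 0.747% were called there, so none of 16 is near those shares. It is not read as a result about granule genes.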

How the data were processed

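The authors deposited 1 table of raw read counts per gene for all 35 libraries, made before removal of duplicate reads, per the name they gave it. FastQC, cutadapt and STAR, with build hg38, are named per the submitters' processing notes, without versions; the counting tool, its strand setting and the annotation are not given in the sources used here. Groups came from the sample labels. The 39 members and the other gene lists were chosen with earlier results of these data known.

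Counts were fitted in R 4.3.3 with edgeR 4.0.16: filterByExpr kept 19275 of 60665 genes (10 counts at the median library, 0.39 CPM), TMM scaled the libraries, and a quasi-likelihood fit of 15 group means over 35 libraries (20 residual degrees of freedom) gave each contrast. Adjusted p-values are Benjamini-Hochberg over all genes tested, with a threshold of 0.05. No gene set was tested. First-set libraries of the same number deviated together in 15 of 15 group pairs (median correlation of deviations 0.742, across 11515 genes), which pairs them; in the second set 6 of 21 pairs exceeded 0.1.

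Values in every library are given for called members whose groups did not overlap, ordered by size of change, up to 8 per direction for ZNF655, ZMYND8, INTS13 and HDGF depletion and starvation of control cells and up to 4 for each other comparison; REST is given in every group, and other lists by their largest called changes. A few further values, of members not called, were chosen after they were seen. Alternatives were DESeq2 1.42.0 (its Wald test and its size factors), no filter, a filter of 20 counts, a replicate block, each set alone and leaving out each library. Leaving out the first-set libraries numbered 1, and the controls labelled for ZMYND8 for each ZNF655 gene, were added after seeing the data. Starved ZMYND8-depleted cells were not analysed here. Some results are not reported here because the items they concern are withheld.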

Additional observations from a re-analysis of the deposited data

Results flagged for a closer look

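In 4 of 62 combinations of a tested gene and a group of 4 libraries, 1 library lay far from the other 3 by Dixon's criterion, which chance passes in about 1 in 20. In unstarved second-set control 3a, STMN2 had 0.102 CPM, where the others had 0, and NEFL had 51.5 CPM, where the others had 39.2 to 41.1 CPM. In starved control 3b SYNGR3 had 3.52 CPM, against 4.9 to 5.18 CPM in the others. In starved control 4a STMN3 had 35.2 CPM, against 39.3 to 40.0 CPM in the others. Of these, NEFL bears on a call, its rise in INTS13 depletion, and STMN3 on another, its rise in starvation of control cells. The STMN3 call held with any library left out.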

How the results depend on the processing

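Of 47 gene and comparison pairs named without REST, 26 stayed called whichever library was dropped. DESeq2 size factors moved no count of members called past 1.5 times. With no filter, TSPYL2 depletion called 1 member, ZEB1 5, ZNF687 1, HDGF depletion in starved cells 1, INTS13 depletion in starved cells 1, and starvation of INTS13- and HDGF-depleted cells 5 and 8; at 20 counts ZNF687 called 1. DESeq2's Wald test called 3 for TSPYL2, 4 for ZEB1, 1 for ZNF609, 3 for ZNF687 and 1 for HDGF depletion in starved cells. With the replicate block on all libraries, counts were 13 for ZNF608, 6 for TSPYL2, 6 for ZEB1, 4 for ZNF687, 2 for ZNF609, 11 for ZMYND8, 7 for HDGF, 6 and 8 for starvation of INTS13- and HDGF-depleted cells, 6 and 1 for INTS13 and HDGF depletion in starved cells, 16 for ZNF655 against HDGF and 4 for ZNF655 minus ZMYND8. Each set alone gave 0 for ZEB1, 2 for ZNF608, 10 for INTS13, 8 for HDGF, 13 for ZMYND8, 9 and 12 for starvation of INTS13- and HDGF-depleted cells, 7 and 3 for those depletions in starved cells, 2 and 1 for the interactions, and 17 and 18 for ZNF655 against INTS13 and HDGF. Each set alone with the block gave 1 for ZEB1, 8 for HDGF, 14 for ZMYND8, 9 and 12, 7 and 3, 2 and 1, and 16 and 17 in the same order. The controls labelled for ZMYND8 gave 8 for ZNF655, and leaving out the first-set libraries numbered 1 gave 5 for TSPYL2, 5 for ZNF609 and 3 for ZNF687. The share of all genes called in each of these fits is not given beside the counts. A change in the members is thus not told apart from a fit that calls more or fewer genes. The causes were not tested.

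Leaving out 1 library gave 5 to 9 members for ZNF608, 0 to 11 for ZEB1, 0 to 1 for TSPYL2, 0 to 2 for ZNF687, 0 to 1 for ZNF609, 4 to 5 for INTS13, 0 to 3 for HDGF, 9 to 13 for ZNF655, 3 to 3 for ZMYND8, 14 to 16 for starvation of control cells, 0 to 1 and 1 to 3 for starvation of INTS13- and HDGF-depleted cells, 0 to 3 and 0 to 0 for those depletions in starved cells, 0 to 0 for both interactions, 2 to 4 and 3 to 5 for ZNF655 against INTS13 and HDGF, and 1 to 3 for ZNF655 minus ZMYND8. REST in TSPYL2 depletion was -0.08 without TSPYL2 library 2 and 0.22 without library 1, the lowest and highest of its values with 1 library left out. CHGB and SCG3 rest on few counts, and no fold below a few counts can be resolved at this depth.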

Other observations

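Voltage-gated channel genes, 25 in a list of which 23 were tested, rose in ZNF655 depletion in 11 cases and fell in none. Of all genes 6.57% rose there and 4.88% fell. Their median log2 fold change was 0.77 for the channel genes, against 0.02 over all genes. Against the controls labelled for ZMYND8, 6 channel genes rose, where 5.16% of all genes did. SCN3B, a sodium channel beta subunit, rose by 1.76 ± 0.28 in ZNF655 depletion, 1.77 ± 0.31 in ZNF608 depletion and 1.24 ± 0.25 in starvation (adjusted p at most 0.0013, edgeR). INTS13 depletion raised 6 channel genes, among them SCN2B (2.14 ± 0.38, adjusted p = 0.000298, edgeR), where 6.53% of all genes rose.

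Some neuronal genes moved the other way. TUBB2B, a beta-tubulin of developing neurons, averaged 22.4 CPM in ZNF655-depleted cells, against 45.3 CPM in controls (-1.01 ± 0.12, adjusted p = 2.8e-06, edgeR). It fell in ZNF608 depletion (-0.46 ± 0.12, adjusted p = 0.0332, edgeR) and ZMYND8 depletion (-0.54 ± 0.13, adjusted p = 0.0497) too. The fall was not particular to these depletions. TUBB2B also fell in ZEB1 (-0.53 ± 0.12), INTS13 (-0.69 ± 0.12) and HDGF depletion (-0.72 ± 0.12), with adjusted p of at most 0.0139 (edgeR). SOX4, a transcription factor of neural progenitors, averaged 93.6 CPM in ZNF655-depleted, 86.8 CPM in INTS13-depleted and 105 CPM in starved control cells, against 190.0 CPM in the controls that the 3 share, and fell in each (adjusted p at most 0.000273, edgeR).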
